A study of Mus musculus with 6 samples.

Results

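The genes of heme breakdown, heme transport and iron export were followed on 6 single-colour arrays of cultured mouse marrow cells. The set was 9 genes, listed by name for their function: Hmox1, Hmox2, Blvra and Blvrb for breakdown, Slc48a1, Flvcr1, Flvcr2 and Abcg2 for heme transport, and Slc40a1 for iron export. Each was read from the probe set that named no other gene and had the highest mean over the arrays, and all 9 were found among the 19938 genes with such a probe set. The marrow came from Spic(igfp/igfp) mice and was grown for 6 days in medium with 20 ng/ml GM-CSF and 10% fetal calf serum. Cultures then received heme, at a dose the labels write as 80 µm and taken here as micromolar, or vehicle, which was 0.15 M NaCl with 10% NH4OH. Floating cells were removed and the adherent cells collected at 6, 24 or 72 h. The 6 groups were therefore heme at 6, 24 and 72 h and vehicle at 6, 24 and 72 h, with 1 array in each, and all 6 shared the genotype and the cytokine. The labels do not name the mouse or culture behind each array, or say what the igfp allele carries, so p-values measure only the spread between these arrays. The title of the series sets the question of how heme acts on the formation of iron-recycling macrophages from monocytes.

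Heme from aged red cells is freed in the lysosome of macrophages, and SLC48A1 carries it to the cytosol. Heme oxygenases open the ring and release iron, carbon monoxide and biliverdin, which biliverdin reductases turn into bilirubin. Iron leaves the cell through ferroportin, the product of Slc40a1, while FLVCR and ABCG2 proteins have been described as carriers of heme at the cell surface. In red pulp macrophages of the spleen this route returns iron to the blood, and HMOX1 is the inducible of the heme oxygenases, HMOX2 the constitutive one.

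Values are log2 expression as deposited, so a difference of 1 is 2-fold. The array medians ran from 5.34 to 5.45, and levels below 5.37, the median of all values, were not taken as detected. All 9 genes lay above that level on all 6 arrays, and 11516 genes reached it on at least 1 array and were tested. Of 7 macrophage markers, 7 reached it, among them Adgre1, Csf1r and Mertk, as did 5 of 7 dendritic cell markers, with Flt3 and Zbtb46 below it on every array. None of the 5 erythroid markers measured reached it (Alas2, Klf1, Slc4a1, Epor and Ermap), and the globin genes were not analysed here. The 7 neutrophil markers had a mean level of 8.62 with heme and 8.41 with vehicle at 6 h, 7.93 and 6.67 at 24 h, and 6.19 and 6.00 at 72 h. All 7 reached the detection level on at least 1 array, but Ly6g, Mpo and Elane peaked close to it, at 5.38, 5.63 and 5.44. At 24 h S100a8, S100a9, Ngp and Camp were at 11.88, 11.66, 8.42 and 8.24 with heme and 9.91, 9.53, 6.58 and 6.3 with vehicle. At 72 h they were at 10.09, 8.3, 4.75 and 6.06 with heme and 9.38, 7.25, 5.02 and 6.04 with vehicle. All 7 neutrophil markers were higher with heme at 24 h, and none passed the test used below (limma, adjusted p from 0.147 to 0.997). By that test 1 of 7 macrophage markers, Cd14, and 1 of 5 dendritic cell markers tested, Ccr7, were higher with heme (limma, adjusted p = 0.00825 and 0.0279). Macrophage markers higher with heme numbered 3, 4 and 4 of 7 at 6, 24 and 72 h, and Fcgr1 was lower at each time (limma, adjusted p = 0.0999). Dendritic cell markers higher with heme numbered 5, 6 and 3 of 7. Of the other lists, 4 of 6 stromal, 1 of 6 mast cell and basophil, 1 of 4 endothelial and 0 of 5 B and T cell markers reached the detection level. In such mixed cultures, fewer cells of a type and less RNA per cell cannot be told apart.

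With heme, Hmox1, Slc40a1 and Slc48a1 rose and Flvcr2 fell over the 3 time points, and the other 5 genes did not pass the test. The count was 3 of 9 up against 1.13% of all genes tested, and 1 of 9 down against 0.590% (limma, adjusted p below 0.05). At an unadjusted p under 0.05 in limma, 4 of 9 were up against 4.97% of all genes, and 2 of 9 down against 5.65%. The genes were picked with earlier results of these data in view, so these counts describe them and support nothing further. The test asks whether the heme minus vehicle difference is large beside a spread between time points, which are not replicates. That spread is partly the gene's own (2 degrees of freedom) and mostly shared over genes (7.17 from the prior). Blvra, with an SD of 0.02 over its 3 differences, thus had an SE of 0.13 in limma. Blvrb, with an SD of 0.71, had an SE of 0.23. The differences of Hmox1 and Hmox2 had opposite signs at each time, as had those of Blvrb and Blvra, of which neither passed. Flvcr1 and Flvcr2 were both lower with heme at 6 and 24 h. Differences between paired genes were not tested.

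**Figure D1:**
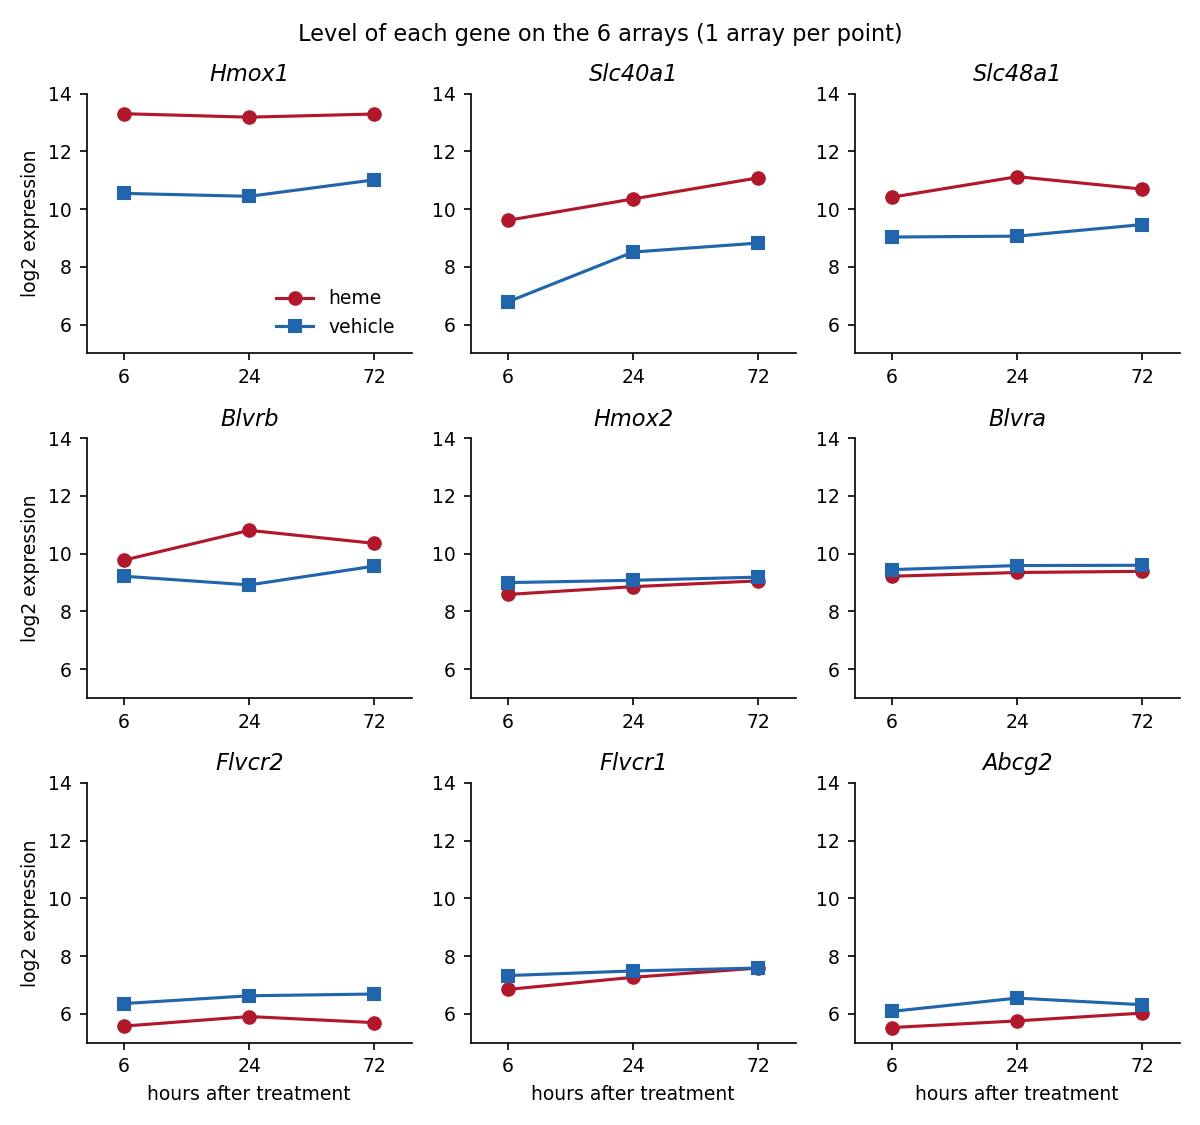
Log2 expression (vertical axes, 5 to 14) of each of the 9 genes at 6, 24 and 72 h (horizontal axes, evenly spaced), with heme as red circles and vehicle as blue squares, 1 array per point. Hmox1 with heme stays between 13.18 and 13.30, Slc40a1 climbs in both treatments, and Flvcr2 lies lower with heme at each time.

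Hmox1 (probe set 10572897), the heme oxygenase that cells induce under heme and oxidative stress, stood at 13.30, 13.18 and 13.29 with heme at 6, 24 and 72 h and at 10.54, 10.44 and 11.01 with vehicle. The 3 heme levels lay within 0.12 of each other, and the lowest of them was 2.17 above the highest vehicle level. The difference was 2.76, 2.74 and 2.27, or 6.77-fold, 6.67-fold and 4.83-fold, with a mean of 2.59 ± 0.28 (SD, n = 3 time points; limma, adjusted p = 8.86e-05). At 72 h, where the difference was smallest, the vehicle level was the highest of the 3. The highest value of any probe set on these arrays was 13.79 to 13.91, and whether Hmox1 with heme was held down by an upper limit of the arrays was not tested. By mean difference Hmox1 was number 9 of 11516 genes.

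Hmox2 (10433292), the constitutive heme oxygenase, had levels of 8.59, 8.86 and 9.06 with heme and 9.0, 9.08 and 9.19 with vehicle. Heme was lower at each time, but the treatments overlapped across times, since heme at 72 h exceeded vehicle at 6 h. The differences of -0.41, -0.23 and -0.12 gave a mean of -0.25 ± 0.15 (SD, n = 3 time points) that did not pass (limma, adjusted p = 0.612). The heme effect on Hmox1 exceeded that on Hmox2 by 3.17, 2.96 and 2.39 at the 3 times, a mean of 2.84 ± 0.40 (SD, n = 3 time points).

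The biliverdin reductases had differences of opposite sign. Blvrb (10551347), which reduces flavins and the beta form of biliverdin, was at 9.78, 10.81 and 10.36 with heme and 9.22, 8.92 and 9.57 with vehicle. All heme levels lay above all vehicle levels, by a gap of 0.21, and the 24 h pair stood widest apart. The difference was 0.56, 1.89 and 0.79, or 1.47-fold, 3.71-fold and 1.73-fold. With a mean of 1.08 ± 0.71 (SD, n = 3 time points) Blvrb was number 87 of 11516 by size and missed the threshold (limma, adjusted p = 0.0589). It passed without the 6 h pair of arrays (limma, adjusted p = 1.45e-06), and its adjusted p was 0.472 without the 24 h pair. The fit without the 6 h pair had 1 residual degree of freedom and a prior of 46.9. Its p-values therefore draw mostly on the spread shared over genes. The largest Blvrb difference falls at 24 h. There the mean level of the 7 neutrophil markers was also 1.26 higher with heme, against 0.21 at 6 h and 0.20 at 72 h. That mean includes Ly6g, Mpo and Elane, which lay near or below the detection level. At 72 h S100a8 and S100a9 were still higher with heme (10.09 against 9.38, and 8.3 against 7.25). Camp was then almost equal (6.06 against 6.04) and Ngp lower (4.75 against 5.02). The part of neutrophils in the Blvrb value was not tested.

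Blvra (10475708), the main biliverdin reductase of adult tissues, was at 9.22, 9.35 and 9.39 with heme and 9.45, 9.59 and 9.60 with vehicle. Every heme level lay below every vehicle level, by a gap of only 0.05. The differences of -0.23, -0.24 and -0.20 were nearly equal, with a mean of -0.22 ± 0.02 (SD, n = 3 time points), and did not pass (limma, adjusted p = 0.653). After cyclic loess they were -0.146, -0.171 and -0.235, so their even size depended on the scaling. The heme effect on Blvrb exceeded that on Blvra by 0.78, 2.13 and 1.0.

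Slc48a1 (10426544), also called HRG1, the carrier of heme out of the lysosome, was at 10.41, 11.12 and 10.69 with heme and 9.03, 9.06 and 9.46 with vehicle. The treatments were apart by 0.95, with the 24 h heme array highest. The difference was 1.38, 2.06 and 1.23, or 2.60-fold, 4.18-fold and 2.34-fold, with a mean of 1.56 ± 0.44 (SD, n = 3 time points; limma, adjusted p = 0.00364). Without the 24 h pair the mean was 1.303 and did not pass (limma, adjusted p = 0.115), in a fit with 1 residual degree of freedom. The neutrophil markers were also higher with heme at 24 h, and their part in the Slc48a1 value was not tested. Hmox1 and Slc40a1 did pass without that pair (limma, adjusted p = 0.012 for each).

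Of the 3 carriers placed at the cell surface, 1 fell and the others did not pass. Flvcr2 (10397364), described as a heme importer, was at 5.58, 5.91 and 5.70 with heme and 6.36, 6.63 and 6.69 with vehicle. The heme levels sat 0.21 or more above the detection level, and all lay below the vehicle levels by at least 0.45. Vehicle exceeded heme by 1.71-fold, 1.64-fold and 1.98-fold, a mean difference of -0.83 ± 0.14 (SD, n = 3 time points; limma, adjusted p = 0.0192). This call was lost without the 24 h pair (limma, adjusted p = 0.271) and without the 72 h pair (limma, adjusted p = 0.064), while the sign held. Over all genes, the fits without a pair called 1 to 199 down, against 68 with all 6 arrays.

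Flvcr1 (10361065), the related exporter that protects red cell precursors from heme, was at 6.85, 7.27 and 7.59 with heme and 7.33, 7.49 and 7.59 with vehicle. The gap narrowed from -0.48 at 6 h to -0.22 at 24 h and 0.00 at 72 h, and the mean of -0.23 ± 0.24 (SD, n = 3 time points) did not pass (limma, adjusted p = 0.694). Its second probe set (10361075) gave -0.14, -0.16 and -0.17, without the narrowing, so the 2 probe sets disagree on the time course. The Flvcr1 difference exceeded that of Flvcr2 by 0.30, 0.50 and 0.99, a mean of 0.59 ± 0.35 (SD, n = 3 time points), which was not tested. Abcg2 (10538640) encodes an exporter of porphyrins and drugs that marks many stem cells. It was at 5.53, 5.76 and 6.03 with heme and 6.09, 6.55 and 6.32 with vehicle. The lowest of these, with heme at 6 h, was 0.16 above the detection level. All heme levels lay below all vehicle levels by 0.06, and the mean difference of -0.55 ± 0.25 (SD, n = 3 time points) did not pass (limma, adjusted p = 0.136).

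Slc40a1 (10354374), ferroportin, had the largest change over time of the 9 genes. It stood at 9.61, 10.35 and 11.08 with heme and at 6.79, 8.51 and 8.82 with vehicle. Heme was higher at each time, and even the 72 h vehicle level stayed 0.79 below the 6 h heme level. The difference was 2.82, 1.83 and 2.26, or 7.07-fold, 3.57-fold and 4.80-fold, with a mean of 2.31 ± 0.50 (SD, n = 3 time points; limma, adjusted p = 5.65e-04). The fit without a term for time gave the same mean but no call (limma, adjusted p = 0.348), since the rise within each treatment then counts as error.

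**Figure D2:**
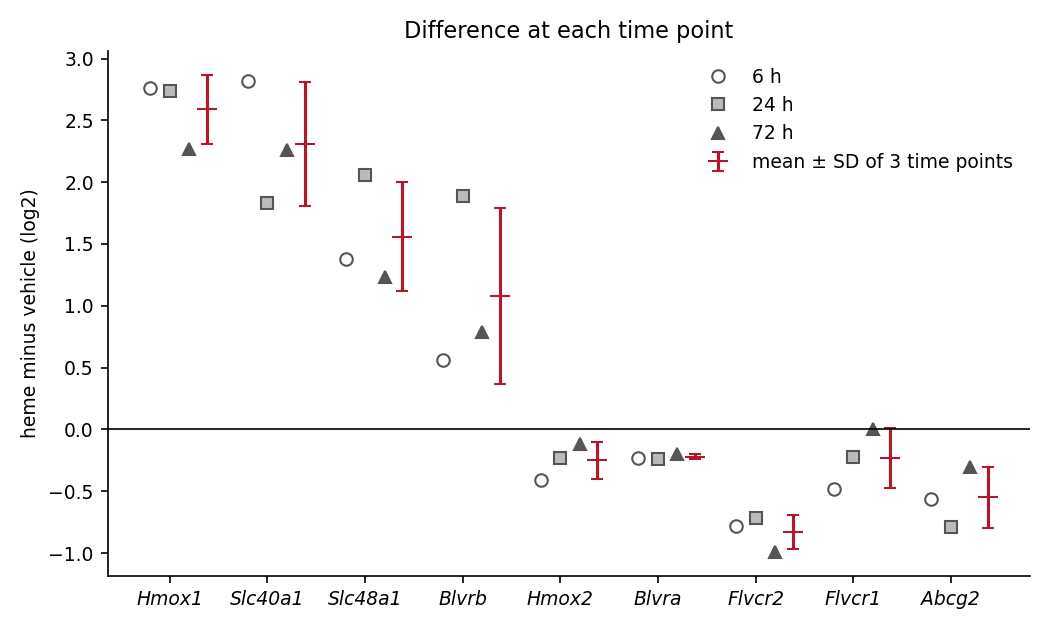
Heme minus vehicle (log2, vertical axis) for each of the 9 genes at 6 h (open circles), 24 h (grey squares) and 72 h (dark triangles), with the mean and SD of the 3 time points in red. Hmox1, Slc40a1, Slc48a1 and Blvrb lie above 0 at each time, Blvrb with the widest spread (SD 0.71), and Flvcr2 lies between -0.99 and -0.72.

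At single time points there is no replicate and no test. Differences of 2-fold or more upwards were seen in 3 of 9 genes at 6 h, 4 of 9 at 24 h and 3 of 9 at 72 h, against 0.964%, 1.42% and 1.25% of all genes tested. The gene added at 24 h was Blvrb. None of the 9 was 2-fold lower at any time, where 0.669%, 0.486% and 0.608% of all genes were, although Flvcr2 at 72 h came to -1.016 and -1.018 after a second quantile normalization and after cyclic loess. At 1.5-fold, Flvcr2 was lower at 6, 24 and 72 h, where 6.89%, 2.83% and 2.67% of all genes were, and Abcg2 at 24 h. Hmox1 and Slc48a1 were 4-fold or more higher at 24 h, as were 0.391% of all genes. The heme levels lay wholly above the vehicle levels in 4 of 9 genes (5.40% of all genes) and wholly below in 3 of 9 (5.85%). Heme was higher at each time in 4 of 9 (12.8% of all genes) and lower at each time in 4 of 9 (17.4%). The median difference of the 9 genes was -0.23, -0.22 and 0.00 at 6, 24 and 72 h, against -0.10, -0.02 and 0.03 over all genes, and 5 of the 9 mean differences were below 0.

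**Figure D3:**
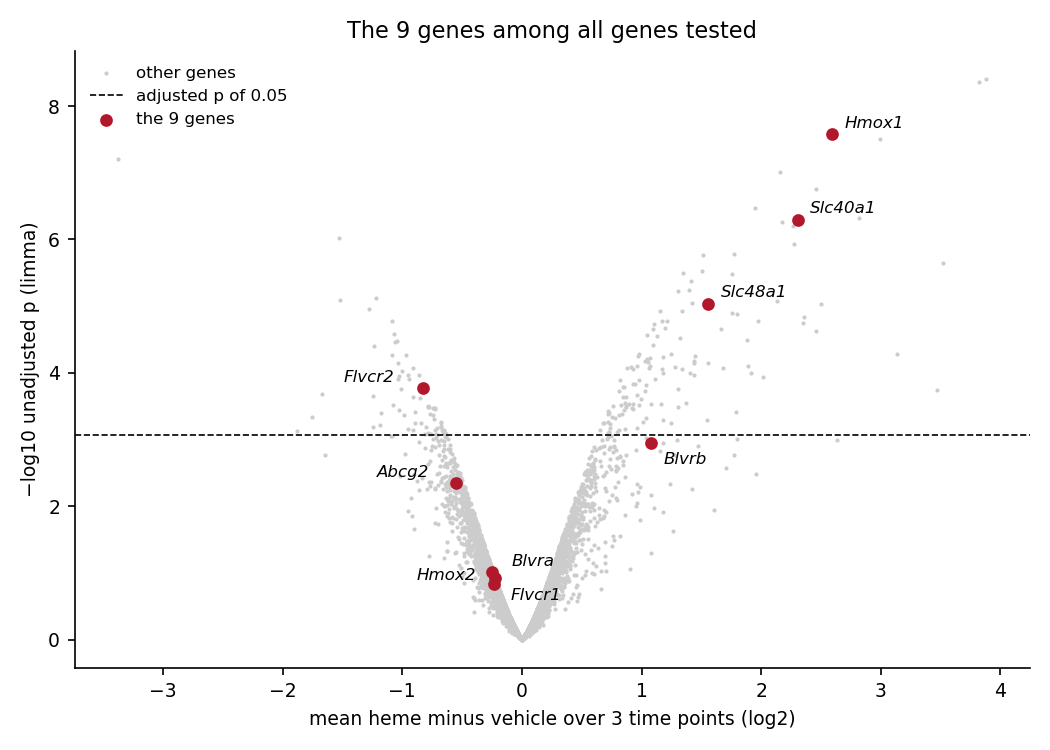
Mean heme minus vehicle over 3 time points (log2, horizontal axis) against -log10 of the unadjusted limma p (vertical axis) for 11516 genes in grey, with the 9 genes in red and a dashed line at an adjusted p of 0.05. Hmox1, Slc40a1, Slc48a1 and Flvcr2 lie above the line, and Blvrb lies just under it at a mean difference of 1.08.

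Time in culture was compared with the time terms of the same fit, which average over heme and vehicle. From 6 to 72 h Slc40a1 rose by 1.75 (SE 0.23; limma, adjusted p = 0.00218), the 1 gene of the 9 to pass, against 3.06% of all genes called higher and 3.53% called lower. The vehicle arrays alone showed a Slc40a1 change of 1.73 by 24 h and 2.03 by 72 h, and the heme arrays 0.74 and 1.47. Cell markers also changed from 6 to 72 h. The mean level of the 7 neutrophil markers fell from 8.41 to 6.0 with vehicle and from 8.62 to 6.19 with heme. That of the 7 macrophage markers rose from 10.28 to 10.7 with vehicle and from 10.25 to 10.91 with heme. The part of such shifts in cell types in the Slc40a1 change was not tested. At 24 h against 6 h 0 of 9 passed, against 0.226% of all genes called higher and 0.373% lower. At an unadjusted p under 0.05 in limma 1 of 9 was higher and 0 lower, against 7.09% and 5.77% of all genes. That gene was Slc40a1, with 1.23 (SE 0.23; limma, adjusted p = 0.0524). Under 4 of the 9 alternatives run for the time terms it did pass (limma, adjusted p = 0.00827 to 0.0485).

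With the probe sets used, the 72 h minus 6 h term was above 0 in all 9 genes, where 50.4% of all genes had it above 0. Besides Slc40a1 it ran from 0.16 for Blvra to 0.50 for Flvcr1, which did not pass (limma, adjusted p = 0.68 and 0.162). In vehicle 9 of 9 genes were higher at 72 h than at 6 h (42.2% of all genes), and with heme 8 of 9 (56.0% of all genes), the exception being Hmox1 with a change of -0.02. Hmox1 in vehicle was 0.47 higher at 72 h. Flvcr1 changed by 0.26 in vehicle and 0.74 with heme. Its second probe set (10361075) went the other way. That probe set stood at 7.32 and 7.24 in vehicle at 6 and 72 h, and at 7.18 and 7.07 with heme. With 1 array per point, differences of this size have no replicate check. Whether change over time differed between the treatments was not tested, nor was the part of shifts in cell types in these changes.

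**Figure D4:**
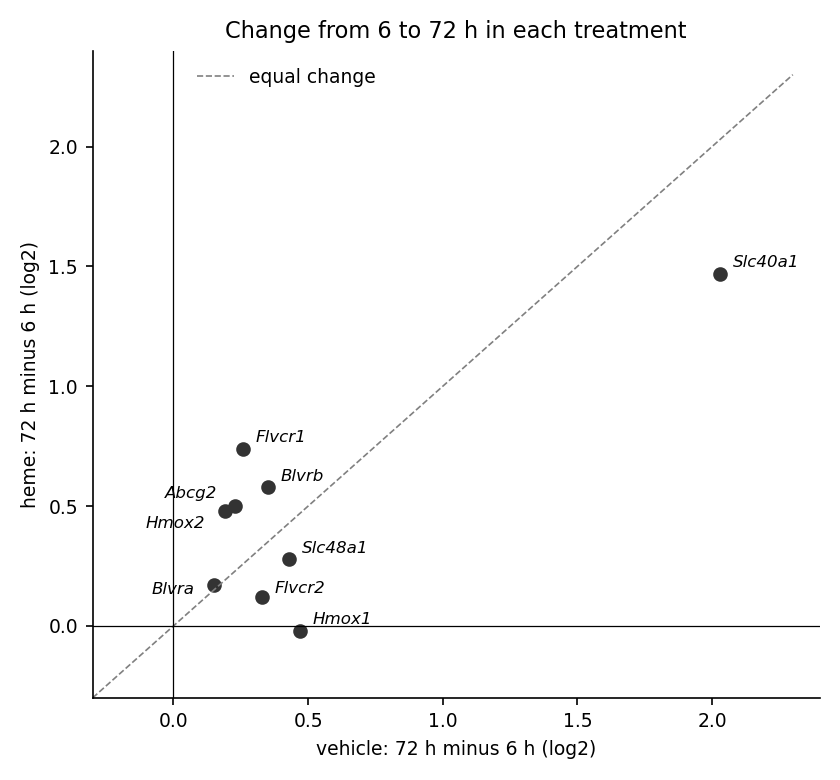
Change from 6 to 72 h (log2) with vehicle (horizontal axis) and with heme (vertical axis) for the 9 genes, with a dashed line where both are equal. Slc40a1 stands apart at 2.03 with vehicle and 1.47 with heme, Hmox1 lies at 0.47 and -0.02, and the other 7 genes lie below 0.80 on both axes.

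Promoters are shown for the reductases and FLVCR carriers, to set the sequences of paired genes side by side. Sequences are from RefSeq on GRCm38.p6 and run from 250 bases before to 50 bases after an annotated start. Windows were found for 6 of the 9 genes. Hmox1, Slc40a1 and Slc48a1 had no window in the table. The motifs searched, 3 in all, were read on both strands and stand in capitals. They were TGACNNNGC, the core of the antioxidant response element bound by NRF2 and BACH1, TGANTCA, the AP-1 core, and CACGTG, the E-box. The shares of windows with a match were 12.4%, 7.81% and 7.15% of the 32851 promoter windows of this length, in that order.

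Blvrb (chr7:27447728-27448027, plus strand): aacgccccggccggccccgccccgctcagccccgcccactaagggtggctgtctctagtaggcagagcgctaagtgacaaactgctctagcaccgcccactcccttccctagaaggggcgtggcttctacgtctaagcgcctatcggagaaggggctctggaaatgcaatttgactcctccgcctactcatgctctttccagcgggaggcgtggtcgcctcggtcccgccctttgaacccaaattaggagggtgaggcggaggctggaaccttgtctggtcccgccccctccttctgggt
Blvra (chr2:127070407-127070706, plus strand): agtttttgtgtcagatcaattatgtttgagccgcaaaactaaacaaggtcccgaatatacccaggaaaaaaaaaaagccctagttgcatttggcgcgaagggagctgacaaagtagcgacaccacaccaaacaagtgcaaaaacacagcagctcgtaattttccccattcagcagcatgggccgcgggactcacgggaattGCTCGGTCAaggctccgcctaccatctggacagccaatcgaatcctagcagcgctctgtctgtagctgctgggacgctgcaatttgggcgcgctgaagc
Flvcr2 (chr12:85746289-85746588, plus strand): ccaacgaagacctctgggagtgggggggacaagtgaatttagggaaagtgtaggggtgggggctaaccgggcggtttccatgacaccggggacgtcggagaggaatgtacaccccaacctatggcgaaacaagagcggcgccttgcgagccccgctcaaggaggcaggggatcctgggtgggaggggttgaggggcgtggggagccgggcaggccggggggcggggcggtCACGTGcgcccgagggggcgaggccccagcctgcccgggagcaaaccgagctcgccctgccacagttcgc
Flvcr1 (chr1:191026141-191026440, minus strand): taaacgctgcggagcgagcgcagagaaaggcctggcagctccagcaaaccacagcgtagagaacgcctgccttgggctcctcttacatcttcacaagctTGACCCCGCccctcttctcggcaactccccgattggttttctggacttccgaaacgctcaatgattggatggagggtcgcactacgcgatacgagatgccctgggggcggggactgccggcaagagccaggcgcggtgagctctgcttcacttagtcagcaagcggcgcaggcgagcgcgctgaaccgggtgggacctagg

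The Blvrb window held none of the motifs, and neither did its second window. Blvra held 1 antioxidant response element core, at position -49 from the start, and Flvcr1 held 1 at -151. Flvcr2 held 1 E-box at -20. The 3 windows each of Hmox2 and Abcg2 held no match. A match describes these letters and is not a binding site, and no match says only that the letters are not in this window.

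The 4 lists of related genes, chosen by function with earlier results of these data known, were read from the same fit. Beside their counts, 1.13% of all genes tested rose and 0.590% fell (limma, adjusted p below 0.05). At an unadjusted p under 0.05 in limma the shares were 4.97% and 5.65%. The list counts describe these genes and support nothing further. Of 22 genes of iron uptake, storage and regulation, 17 were tested, 1 rose, 0 fell and 16 did not pass. Their median difference was 0.05, against -0.03 for all genes. Slc25a37, or mitoferrin, which brings iron into mitochondria, rose by 0.76, 1.06 and 1.32 at 6, 24 and 72 h (limma, adjusted p = 0.0112). It did not pass without the 24 h pair, when 0 of the iron genes did. Over all genes, the fits without a pair called 11 to 322 up, against 130 with all 6 arrays. The ferritin chains, which store iron, did not pass. Fth1 differed by 0.10, 0.01 and 0.03 (limma, adjusted p = 0.953) and Ftl1 by 0.23, -0.14 and -0.07 (limma, adjusted p = 0.994).

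The transferrin receptor Tfrc was at 6.05 with heme and 7.56 with vehicle at 6 h, and differed by -0.02 and -0.05 later (limma, adjusted p = 0.566). Hamp, which encodes the hormone hepcidin that closes ferroportin, differed by -1.70 at 72 h and was below the detection level on the 4 earlier arrays (limma, adjusted p = 0.131). Lcn2, which binds iron-carrying siderophores, differed by 0.00, 2.62 and 2.49 and did not pass (limma, adjusted p = 0.103). Lcn2 is also a granule gene of neutrophils, whose mean marker level differed by 0.21, 1.26 and 0.20 at the same times. At 72 h S100a8 and S100a9 were at 10.09 and 8.3 with heme and 9.38 and 7.25 with vehicle, while Ngp was lower with heme. The part of neutrophils in the Lcn2 value was not tested.

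No gene of heme synthesis passed. Of 9, 7 were tested, 0 passed in limma and 0 had an unadjusted p under 0.05, and the median difference was -0.13. Those with the largest means were Cpox at -0.22, Fech, which inserts iron into the ring, at 0.20, and Alad at -0.17, with adjusted p-values in limma of 0.723, 0.763 and 0.828.

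Among 19 other heme carriers and genes of bilirubin handling, 13 were tested, 2 rose, 1 fell and 10 did not pass, with a median of 0.17. Abcc1, an exporter of glutathione conjugates that also carries bilirubin, rose by 1.72, 2.71 and 2.37 (limma, adjusted p = 6e-04). Abcc5, described as a heme exporter, rose by 1.05, 1.07 and 0.78 (limma, adjusted p = 0.0106). The organic anion carrier Slco2b1 fell, with differences of -1.65, -1.47 and -1.47 and a mean of -1.53 ± 0.10 (SD, n = 3 time points; limma, adjusted p = 8.47e-04). Hp, haptoglobin, which captures free hemoglobin and is also held in neutrophil granules, differed by 0.29, 2.46 and 2.65 (limma, adjusted p = 0.0535). The mean level of the neutrophil markers differed by 0.21, 1.26 and 0.20, although S100a8 and S100a9 were still higher with heme at 72 h and Ngp lower. The part of neutrophils in the Hp value was not tested. Without the 6 h pair 4 genes of this list rose, and without the 24 h pair 1 rose and 0 fell. Over all genes the fits without a pair also varied, from 11 to 322 up and from 1 to 199 down. Por, which supplies heme oxygenases with electrons, was not analysed here.

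Most genes in the list of heme-sensing and antioxidant regulators, which also held Spic, Mitf, Tfe3 and Tfeb, did not pass. Of 14, 13 were tested, 1 rose, 0 fell and 12 did not pass, with a median of 0.12. The gene that rose was Spic, the heme-induced factor of red pulp macrophages (3.88 ± 0.47; limma, adjusted p = 2.55e-05). All arrays came from Spic(igfp/igfp) mice, and whether the igfp allele affects the Spic value was not tested. The heme-bound repressor Bach1 and Nfe2l2, which encodes NRF2, had means of 0.06 and 0.12 (limma, adjusted p = 0.937 and 0.913). Mafg, a small MAF partner of both, differed by 0.56, 0.66 and 0.58 (limma, adjusted p = 0.0649), and Mitf by 0.95, 0.48 and 0.39 (limma, adjusted p = 0.115).

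**Figure D5:**
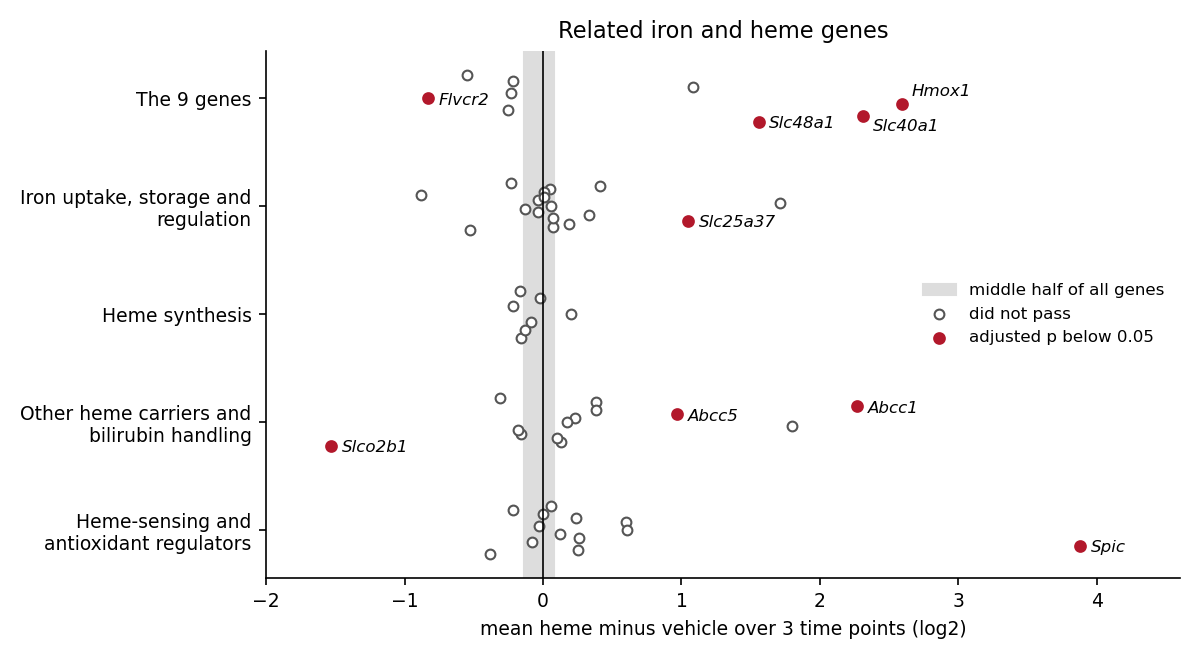
Mean heme minus vehicle over 3 time points (log2, horizontal axis) for the 9 genes and the 4 related lists, 1 point per gene tested, filled red where the adjusted p was below 0.05. The grey band runs from the lower to the upper quartile of all genes, -0.14 to 0.08. Spic, Hmox1, Slc40a1 and Abcc1 lie furthest to the right and Slco2b1 furthest to the left, and no gene of heme synthesis is filled.

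The genes whose levels followed a member most closely over the 6 arrays were named by Pearson correlation, as a description in which each r rests on 6 points that share treatment and time. Hmox1 was followed by Abcc5 (0.992), the glutathione synthesis gene Gclm (0.989) and Abr (0.988). Abr reached its correlation with differences of only 0.27, 0.30 and 0.24, so likeness of pattern is not likeness of size. Slc40a1 was followed by Apbb3 (0.990), Acvrl1 (0.987) and Pot1b (0.986), all of which were higher with heme at each time by less than 0.70. Slc48a1 was followed by Nfkbiz (0.992), Spic (0.990) and Mvp (0.987), each with its largest difference at 24 h. Blvrb, with its peak at 24 h, was followed by Fscn1 (0.983), Rit1 (0.981) and Lztfl1 (0.979). Flvcr2 was followed by the cholesterol exporter Abcg1 (0.996), the nuclear receptor gene Pparg (0.992) and Mbd3 (0.988). Abcg1 differed by -0.69, -0.65 and -0.99 and Flvcr2 by -0.78, -0.72 and -0.99.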

How the data were processed

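The authors deposited log2 expression per probe set after RMA quantile normalization with ArrayStar, per the submitters' processing notes and design text. Software versions and genome build were not stated in the sources used here. RMA merges several probes into 1 value and compresses differences of dim probe sets. The platform annotation gave 1 gene for 21789 of 35556 probe sets and several for 1621, and did not list 12146. Gene identifiers matched 21698 of the first kind to the GRCm38.p6 gene table. Of 19938 genes, 999 had several probe sets, and the one with the highest mean was used. Genes were kept where the highest array reached the median of all values (5.37).

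The tests, all two-sided, used lmFit and eBayes of limma 3.58.1 (R 4.3.3), with terms for treatment and time over the 6 arrays, 2 degrees of freedom for error, 7.17 more from the prior, and Benjamini-Hochberg adjustment over 11516 genes. Deviations from the treatment means were correlated between arrays of 1 time point (r of 0.562, 0.215 and 0.531). The step was tested on simulated data. The members and lists were chosen with earlier results of these data known. Named were all 9 members, genes of the related lists that passed, the 3 with the largest mean in each, Por, Bach1, Nfe2l2, Tfrc, Fth1 and Ftl1, and the 3 genes most correlated with each of 5 members, leaving out predicted genes. Scaling was varied by quantile normalization again, median-centring or cyclic loess. The level filter was dropped or set on the mean, probe sets were averaged, and 16 was added on the linear scale. The fit was run without time, with a variance trend, with robust eBayes and without each time point, and fold thresholds were set at 1.5 and 4. Python 3.11.15 was used for tables and figures.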

Additional observations from a re-analysis of the deposited data

Results flagged for a closer look

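The heme minus vehicle difference had opposite signs at different time points, by more than 0.1 either way, in 2 of the genes named, and this contrast between time points was not tested. Nfe2l2 was higher with heme at 6 and 24 h (0.46 and 0.32) and lower at 72 h (-0.41), a span of 0.87. Ftl1 was higher at 6 h (0.23) and lower at 24 and 72 h (-0.14 and -0.07), a span of 0.38. Each value rests on 1 array per treatment. With 1 array in each group, no sample could be set against others of its group.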

How the results depend on the processing

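Hmox1 rose under all 13 alternatives (2.505 to 2.749; limma, adjusted p at most 0.012), and each of the 9 genes kept the sign of its mean difference in all of them. Leaving out each time point in turn, the mean ran from 0.676 to 1.342 for Blvrb, 1.303 to 1.721 for Slc48a1 and -0.882 to -0.747 for Flvcr2. Without a pair, the count of the 9 called was 2 to 4 up and 0 to 1 down. Over all genes it was 11 to 322 up and 1 to 199 down. For iron genes it was 0 to 2 up and 0 to 1 down, for other carriers 1 to 4 and 0 to 1, and for regulators 1 to 2 up. Each such fit had 1 residual degree of freedom, and without the 6 h pair a prior of 46.9, so those p-values draw mostly on the spread shared over genes.

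Without the time term 1 of the 9 was called up and 0 down, 17 and 1 of all genes, 0 iron genes up and 0 carriers down. Slc40a1 (2.306), Slc48a1 (1.556) and Flvcr2 (-0.826) then did not pass (limma, adjusted p = 0.348, 0.0584 and 0.145), with 4 residual degrees of freedom. Blvrb passed after median-centring (1.044; limma, adjusted p = 0.015) and with the mean of probe sets (1.081; limma, adjusted p = 0.0488). Median-centring moved the median of all genes at 6 h from -0.104 to -0.218, called 117 of all genes down and 2 iron genes up and 1 down, and gave a split of 58.1% up in place of 65.7%. After cyclic loess 36 were down and 76.2% up. The offset of 16 called 2 regulators up.

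For 24 h against 6 h, 1 member (Slc40a1) was called up after median-centring, with the filter on the mean, with the mean of probe sets and with robust eBayes. Of all genes 82 were up and 89 down after median-centring, 7 and 16 after cyclic loess, and 72 and 67 were down with the mean of probe sets and robust eBayes. At 72 h 1 member was 2-fold lower after the second quantile normalization and cyclic loess. At 1.5-fold 1, 2 and 1 members were lower at 6, 24 and 72 h (6.89%, 2.83% and 2.67% of all genes), and at 4-fold 2 were higher at 24 h (0.391%). The cause of these changes was not tested. Signal limits Flvcr2 and Abcg2 most, whose lowest levels were 0.21 and 0.16 above the detection level.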
